A study of Rattus norvegicus with 24 samples.

Results

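Glucose handling was followed by 6 genes in the left and right ventricles of rats: 2 glucose transporters, Slc2a4 (GLUT4, ENSRNOG00000017226) and Slc2a1 (GLUT1, ENSRNOG00000007284), the hexokinase Hk2 (ENSRNOG00000006116), the glycolytic dehydrogenase Gapdh (ENSRNOG00000018630), the lactate dehydrogenase subunit Ldha (ENSRNOG00000013009) and the pyruvate dehydrogenase kinase Pdk4 (ENSRNOG00000009565). These 6 of the 32883 gene numbers in the deposited tables were picked by identifier for their role, and all 6 passed the filter on low values in both ventricles. The symbols are those given with the identifiers when the genes were chosen. The tables hold Ensembl numbers only and the RefSeq table used here matched 0 of them, so the symbols were not checked, and other genes of the pathway and markers of the tissue or of its cell types were not analysed here.

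The heart takes up glucose through GLUT4, which insulin and contraction bring to the cell surface, and through GLUT1, which serves basal uptake and predominates in the fetal heart. Hexokinase traps the sugar as glucose 6-phosphate, glycolysis turns it into pyruvate, and lactate dehydrogenase exchanges pyruvate with lactate. Pyruvate dehydrogenase kinase 4 switches off the entry of pyruvate into mitochondrial oxidation, and its gene is known to be raised by fatty acids and fasting through PPAR receptors.

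The samples came from rats of strain WI, 6 animals labelled CTL, presumably controls, and 6 animals labelled DAAO, each with a library from the left ventricle plus septum and a library from the right ventricular free wall, 24 libraries in 4 groups of 6. DAAO usually stands for D-amino acid oxidase, an oxidase that releases hydrogen peroxide when it acts on D-amino acids, and the series title names chemogenetic heart failure. The vector, promoter, agent, dose, time, age and sex, and what CTL rats received, were not stated in the labels. The 4-digit number of each label is read as the animal, written below with the prefix of its column in the tables (C_ in CTL, D_ in DAAO). Every DAAO number is higher than every CTL number, so treatment and a possible unlabelled cohort of animals cannot be told apart.

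Left ventricular libraries held 15363539 to 23263897 recovered reads, and right ventricular ones 13280705 to 18777633. The member with the fewest reads in a library was Slc2a1, at 234. CTL animals C_7000 and C_7005 stood apart from the other 4 CTL animals. All tested genes define an axis that runs from 0, the mean of those 4, to 1, the DAAO mean. On it C_7000 lay at 0.42 (left) and 0.44 (right), and C_7005 at 0.81 and 0.73. The other 4 CTL animals lay between -0.09 and 0.12 and DAAO animals between 0.69 and 1.35 over both ventricles. Their averages of 0 and 1 are fixed by how the axis is built. C_7000 and C_7005 were set apart before it was built and had no part in it, so the positions are a description and not a test. The share of the 10 most abundant genes was lower in DAAO than in CTL in both ventricles (26.6% ± 3.4 against 21.1% ± 2.5 in the left, mean ± SD of 6, two-sided exact permutation p = 0.0152, adjusted p = 0.0303 over 6 library measures, and 27.8% ± 2.8 against 23.0% ± 2.2 in the right, exact permutation p = 0.00866, adjusted p = 0.0260). Genes with at least 1 read were more in DAAO in the right ventricle (16051 ± 416 in CTL and 17157 ± 532 in DAAO, mean ± SD of 6, exact permutation p = 0.00649, adjusted p = 0.0260), while the other 3 measures did not pass the threshold. The part of these measures in the results was not tested. Under equal library totals the all-gene median of the log2 fold change moved from 0.01 to 0.22 (left) and from 0.02 to 0.27 (right), and the higher share of the called genes rose from 46.4% to 72.7% and from 47.1% to 80.4%. Values below are on the deposited scaling, and the effect of equal totals is given where it changes a call.

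The question of the comparison was which of these genes differed in RNA level between DAAO and CTL hearts. Protein, transporters at the cell surface and the use of glucose were not measured in these data. In the left ventricle 5 of the 6 genes changed at the adjusted threshold of 0.05 in limma, 1 higher (Slc2a1) and 4 lower in DAAO (Slc2a4, Pdk4, Gapdh and Hk2). Of all 14041 genes tested there 37.3% changed, 17.3% higher and 20.0% lower. Of the 6, 3 changed in the right ventricle, Slc2a1 higher and Slc2a4 and Gapdh lower, against 26.5% of 13489 genes, 12.5% higher and 14.0% lower. The median log2 fold change of the 6 was -0.35 in the left and -0.28 in the right ventricle, where the median of all genes tested was 0.01 and 0.02. In whole tissue, fewer cells of a type and less RNA per cell cannot be told apart.

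**Figure D1:**
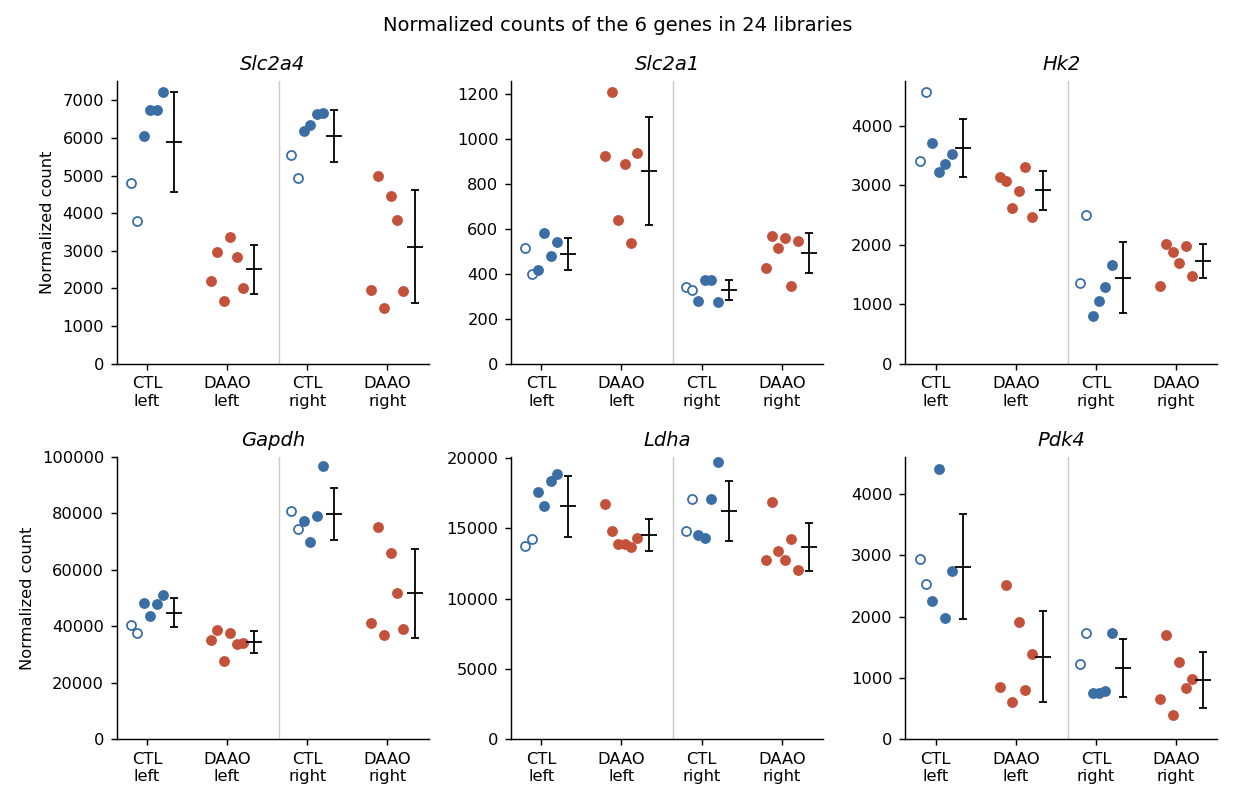
Deposited normalized counts (vertical axes from 0, counts divided by a size factor computed per ventricle) of the 6 genes in each library of the 4 groups, with the mean and SD of 6 beside the points. Open circles are CTL animals C_7000 and C_7005. Slc2a4 separates the left ventricular groups without overlap, Slc2a1 is higher in DAAO in both ventricles, and Ldha overlaps in both.

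Slc2a4, the insulin-responsive transporter, fell in both ventricles. In the left ventricle its normalized count ran from 3786 to 7229 in CTL, with a median of 6397, and from 1656 to 3367 in DAAO, with a median of 2516. All 6 DAAO libraries lay below all 6 CTL libraries. Its mean was 5896 ± 1332 in CTL and 2509 ± 652 in DAAO (mean ± SD of 6), a log2 fold change of -1.24 with an SE of 0.19 (adjusted p = 0.000349, limma). Such separation without overlap was found for 15.9% of all genes in that ventricle and for 1 of the 6 described here. The 2 lowest CTL values were those of animals C_7005 (3786) and C_7000 (4817), and without these 2 animals the log2 fold change was -1.46 (limma adjusted p = 4.81e-05). On the axis above these 2 animals lie toward DAAO, so leaving them out, here and below, can enlarge a difference. Not every estimate grew: left ventricular Slc2a1 went from 0.77 to 0.72, left Hk2 from -0.31 to -0.25 and right Pdk4 from -0.32 to -0.11.

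The right ventricular count of Slc2a4 ran from 4945 to 6672 in CTL (median 6272) and from 1490 to 4985 in DAAO (median 2890). The DAAO values fell apart into 3 low animals, D_7135, D_7138 and D_7146, at 1952, 1490 and 1939, and 3 higher ones, D_7143, D_7142 and D_7137, at 3828, 4463 and 4985. The highest, that of D_7137, overlapped the lowest CTL value. The mean was 6056 ± 681 in CTL and 3109 ± 1497 in DAAO (mean ± SD of 6), with a log2 fold change of -1.11 with an SE of 0.27 (adjusted p = 0.00833, limma). Without animals C_7000 and C_7005, again the 2 lowest of CTL, it was -1.21 (limma adjusted p = 0.0118). None of the 6 genes separated the right ventricular groups fully, where 9.96% of all genes did.

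Slc2a1, the basal transporter, rose in both ventricles. Its left ventricular count ran from 399 to 580 in CTL (median 497) and from 537 to 1211 in DAAO (median 907). Animal D_7137 was the highest and animal D_7143 the only DAAO animal within the CTL range. The mean rose from 488 ± 71 to 857 ± 239 (mean ± SD of 6), a log2 fold change of 0.77 with an SE of 0.17 (adjusted p = 0.00387, limma). In the right ventricle it ran from 275 to 372 in CTL (median 335) and from 346 to 569 in DAAO (median 530), once more with 5 of 6 DAAO libraries above every CTL library and D_7143 the exception. The right ventricular mean rose from 327 ± 43 to 493 ± 89 (mean ± SD of 6), a log2 fold change of 0.58 with an SE of 0.14 (adjusted p = 0.00802, limma). Without CTL animals C_7000 and C_7005 the log2 fold changes were 0.72 and 0.60 (limma adjusted p = 0.00945 and 0.0162).

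Because the transporters moved in opposite directions, their ratio within each library changed more than either alone. This ratio does not depend on how libraries are scaled. It is a ratio of counts and is not corrected for transcript length, so its changes can be read but its absolute level cannot. In the left ventricle Slc2a1 over Slc2a4 ran from 0.0686 to 0.106 in CTL (median 0.0805) and from 0.190 to 0.465 in DAAO (median 0.396), with no overlap. The group means were 0.0854 ± 0.0169 and 0.355 ± 0.105 (mean ± SD of 6), and the mean log2 ratio was higher in DAAO by 2.01, which is 4.04-fold (exact permutation p = 0.00216, two-sided, the smallest that assigning 12 libraries to 6 and 6 can give, adjusted p = 0.00812 over 30 ratios).

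The right ventricular ratio of Slc2a1 to Slc2a4 ran from 0.0412 to 0.0664 in CTL (median 0.0572) and from 0.0904 to 0.346 in DAAO (median 0.172), again with no overlap. The means were 0.0547 ± 0.0098 and 0.196 ± 0.103 (mean ± SD of 6). The mean log2 ratio was higher by 1.69, 3.22-fold (exact permutation p = 0.00216, two-sided, adjusted p = 0.00812 over 30 ratios). The ratio thus separated the groups in both ventricles, where Slc2a1 alone did so in neither and Slc2a4 alone in the left only. The share of other gene pairs whose ratio separates the groups was not computed. Within CTL, animals C_7000 and C_7005 had the 2 highest ratios in both ventricles, and without them the log2 differences were 2.18 and 1.81.

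**Figure D2:**
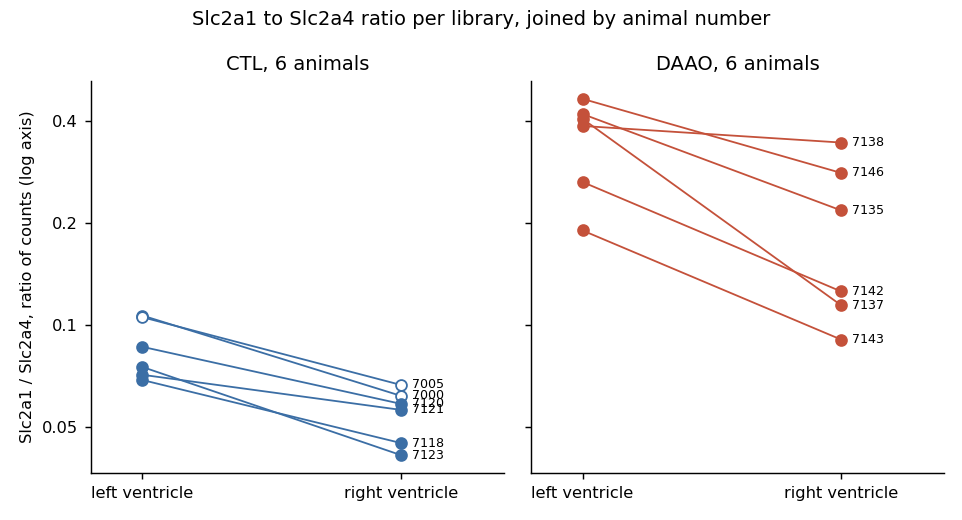
Ratio of Slc2a1 to Slc2a4 counts in each library (log axis), left and right ventricular libraries of an animal number joined by a line, CTL in the left panel and DAAO in the right. Open circles are CTL animals C_7000 and C_7005. Every line falls from left to right ventricle, and all CTL points lie at or below 0.106 while DAAO points lie between 0.0904 and 0.465.

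Since it is formed within a library, the same ratio could be compared between ventricles of an animal. It was higher in the left than in the right ventricle in 6 of 6 CTL animals, by 0.64 ± 0.18 on the log2 scale, and in 6 of 6 DAAO animals, by 0.97 ± 0.54 (SD, n = 6 each, exact sign-flip permutation p = 0.0312 in each group, two-sided, the smallest that 64 sign patterns can give, unadjusted). DAAO animals spread from 0.16 in animal D_7138 to 1.83 in animal D_7137. The DAAO effect on the ratio was larger in the left ventricle by 0.33 on the log2 scale, which was within the spread of the animals (exact permutation p = 0.201, two-sided). Without DAAO animal D_7138 that difference was 0.49 (exact permutation p = 0.0108).

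Hk2, the hexokinase of insulin-sensitive tissues, fell slightly in the left ventricle. It ran from 3219 to 4562 in CTL (median 3458) and from 2463 to 3305 in DAAO (median 2983). In DAAO, 5 libraries lay below every CTL library, and that of animal D_7143 lay within the CTL range. The mean was 3626 ± 488 in CTL and 2913 ± 323 in DAAO (mean ± SD of 6). The log2 fold change was -0.31 with an SE of 0.10 (adjusted p = 0.0210, limma). The call depends on the settings. With equal totals the log2 fold change of Hk2 was -0.11 (limma adjusted p = 0.482). With edgeR's TMM scaling it was -0.29 and kept the call (limma adjusted p = 0.0310). On the deposited scaling, 1 fit of all 24 libraries lost the call (limma adjusted p = 0.191).

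Right ventricular Hk2 ran from 808 to 2506 in CTL (median 1324) and from 1314 to 2015 in DAAO (median 1781), and the groups overlapped widely. The means were 1448 ± 593 and 1724 ± 286 (mean ± SD of 6), and the log2 fold change of 0.33 had a 95% confidence interval from -0.14 to 0.79 (limma adjusted p = 0.281). CTL animal C_7005 held the highest Hk2 value of CTL in both ventricles. Without it the right ventricular log2 fold change was 0.50 (limma adjusted p = 0.0410), and leaving out C_7000 as well it was 0.55 (limma adjusted p = 0.0428).

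Gapdh, which encodes a central enzyme of glycolysis and is a common reference gene in PCR, fell in both ventricles. In the left it ran from 37593 to 51280 in CTL (median 45891) and from 27708 to 38735 in DAAO (median 34637), with 5 DAAO libraries below every CTL library. The mean fell from 44938 ± 5236 to 34494 ± 3866 (mean ± SD of 6). The log2 fold change was -0.38 with an SE of 0.11 (adjusted p = 0.0173, limma). In the right ventricle it ran from 70016 to 96650 in CTL (median 78124) and from 36977 to 75209 in DAAO (median 46548), again with 5 DAAO libraries below every CTL library and that of D_7137 among CTL. Animals D_7135, D_7138 and D_7146 were again the 3 lowest there, at 41313, 36977 and 39078.

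The right ventricular mean of Gapdh fell from 79746 ± 9115 to 51751 ± 15781 (mean ± SD of 6). The log2 fold change was -0.67 with an SE of 0.20 (adjusted p = 0.0236, limma). That call lies near the threshold. Leaving out CTL animal C_7123 or DAAO animal D_7135, D_7138 or D_7146 lost it (limma adjusted p between 0.0516 and 0.0599), as did using no filter on low values (limma adjusted p = 0.109), which also lost the left ventricular call (limma adjusted p = 0.0544). Rodent genomes hold many processed copies of Gapdh, and nothing states how reads shared with them were counted. With equal totals the fall was -0.18 in the left and -0.42 in the right ventricle (limma adjusted p = 0.0458 and 0.0445).

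Ldha, which encodes the muscle-type subunit of lactate dehydrogenase, did not pass the threshold in either ventricle. Its left ventricular count ran from 13715 to 18842 in CTL (median 17079) and from 13639 to 16701 in DAAO (median 14092), with only the DAAO library of D_7143 below every CTL library. The means were 16545 ± 2141 and 14529 ± 1136 (mean ± SD of 6), with a log2 fold change of -0.18 and a 95% confidence interval from -0.39 to 0.03 (limma adjusted p = 0.153). Right ventricular Ldha ran from 14273 to 19687 in CTL (median 15926) and from 12041 to 16853 in DAAO (median 13064), where 5 DAAO libraries lay below every CTL library and that of animal D_7137 lay within the CTL range. The right ventricular log2 fold change was -0.25, with an interval from -0.51 to 0.01 (limma adjusted p = 0.139). With equal totals the estimates were 0.02 and -0.0013, so the sign of the left one turned. Without CTL animals C_7000 and C_7005 the left ventricular estimate was -0.30 (limma adjusted p = 0.0113), and without DAAO animal D_7137 the right one was -0.31 (limma adjusted p = 0.0485).

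Pdk4, the brake on pyruvate oxidation, fell in the left ventricle and was the most variable member there. It ran from 1980 to 4408 in CTL (median 2644) and from 609 to 2523 in DAAO (median 1122). Animal D_7137, at 2523, lay within the CTL range, while D_7135, D_7138 and D_7143 lay at 859, 609 and 804. The mean fell from 2815 ± 853 to 1348 ± 745 (mean ± SD of 6), a log2 fold change of -1.20 with an SE of 0.32 (adjusted p = 0.0104, limma), and with equal totals it was -0.99 (limma adjusted p = 0.0162).

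Right ventricular Pdk4 ran from 762 to 1736 in CTL (median 1010) and from 394 to 1703 in DAAO (median 907), with 2 DAAO libraries below every CTL library. The means were 1168 ± 473 and 970 ± 462 (mean ± SD of 6), and the log2 fold change of -0.32 had a 95% confidence interval from -1.02 to 0.38 (limma adjusted p = 0.495). The coefficient of variation of Pdk4 in DAAO was 55.3% in the left and 47.6% in the right ventricle, against 7.82% and 12.6% for Ldha.

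**Figure D3:**
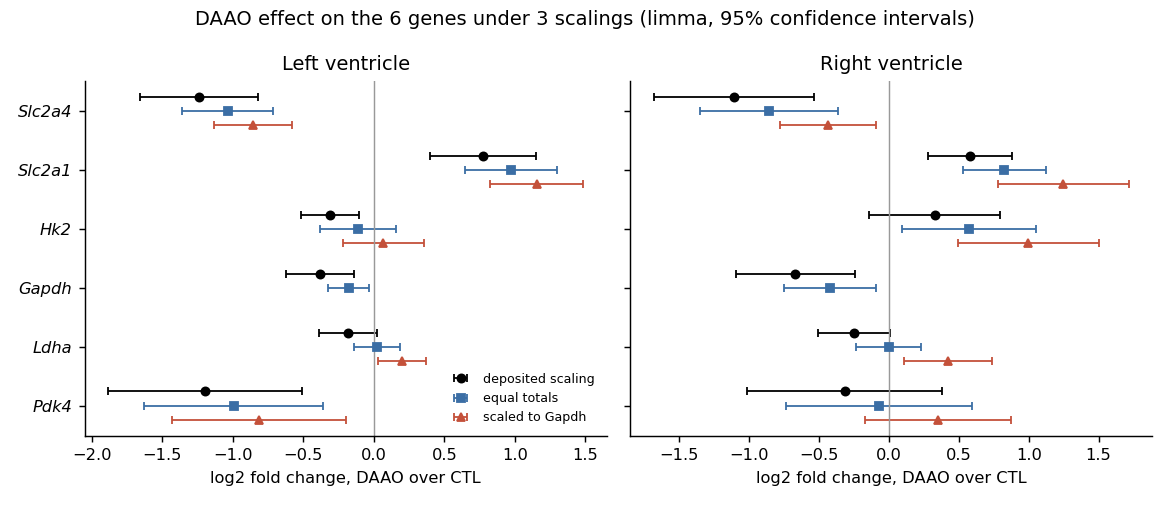
Log2 fold change of DAAO over CTL (horizontal axis) for each gene in the left and right ventricle, with limma's 95% confidence intervals, on the deposited scaling (circles), with equal library totals (squares) and with every library scaled to its Gapdh count (triangles, not shown for Gapdh itself). Slc2a4 lies below 0 and Slc2a1 above 0 under each scaling in both ventricles, while Hk2 and Ldha in the left and Ldha and Pdk4 in the right ventricle lie on either side of 0.

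Unequal DAAO effects in the ventricles were sought in 1 limma fit over all 24 libraries. This fit treats the 2 libraries of an animal as independent. In it the effect differed for 2.93% of 13344 genes. Of these, 53.5% had the more positive log2 fold change in the left ventricle (31.4% under equal totals). Of the 6 genes 0 differed. Of them 1 (Hk2) had an unadjusted p under 0.05, and the share of all genes with such a p was not computed. Both edgeR and DESeq2 also called 0 of the 6, against 2.93% and 5.54% of all genes. At such shares 0 of 6 says little about these genes. The largest estimates, left minus right, were those of Pdk4 at -0.88 (SE 0.49, limma adjusted p = 0.361) and Hk2 at -0.64 (SE 0.25, limma adjusted p = 0.176). The Hk2 estimate was below 0 in the left and above 0 in the right ventricle. With the animal as a block, 10.2% of genes differed under limma's estimated correlation and 8.03% with fixed animal terms, and Hk2 was called in both fits (limma adjusted p = 0.0478 and 0.0431). Pdk4 was called with fixed animal terms only (limma adjusted p = 0.0424, against 0.133 with the correlation). Without CTL animal C_7005, Hk2 was also called in the fit without a block (-0.75, limma adjusted p = 0.0375). For Slc2a4, Slc2a1, Gapdh and Ldha the estimates were -0.13, 0.19, 0.29 and 0.07, with intervals from -0.86 to 0.59, -0.28 to 0.67, -0.16 to 0.74 and -0.23 to 0.37.

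All 15 ratios between pairs of the 6 genes were tested in each ventricle, free of library scaling. In each ventricle 9 of the 15 changed (exact permutation test, two-sided, adjusted p below the threshold over 30 ratios), 7 of them in both and in the same direction. The 15 ratios share 6 genes and are not independent. The share of changed ratios among pairs of other genes was not computed, so these counts cannot be read as particular to the 6. Slc2a4 fell relative to Gapdh, to Ldha and to Hk2 in both ventricles, by 0.86, 1.06 and 0.93 on the log2 scale in the left and by 0.44, 0.86 and 1.43 in the right. Slc2a1 rose relative to Gapdh by 1.16 and 1.25, with all 6 DAAO above all 6 CTL libraries in each ventricle (exact permutation p = 0.00216, adjusted p = 0.00812), and relative to Ldha by 0.95 and 0.83. Gapdh fell relative to Ldha by 0.20 in the left and by 0.42 in the right ventricle (exact permutation p = 0.0173 and 0.0238, adjusted p = 0.0346 and 0.0420).

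The remaining changes of ratios each passed in 1 ventricle. In the left ventricle Slc2a1 rose relative to Pdk4 by 1.97 and relative to Hk2 by 1.09. Right ventricular Hk2 rose relative to Gapdh by 1.0 and relative to Ldha by 0.58 on the log2 scale. The ratio of Slc2a4 to Pdk4 did not change past the threshold in the left ventricle, where both fell (log2 difference -0.04, exact permutation p = 0.883). Differences between the ventricles in these ratios were not tested. A ratio shows unequal change, and does not say which of the 2 genes moved.

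Scaling to Gapdh, as a reference gene would be used, moved the estimates of the other 5 genes upward, and the all-gene median log2 fold change to 0.39 in the left and 0.69 in the right ventricle, where 88.0% and 97.3% of called genes were then higher. Slc2a4 still fell (-0.86 in the left and -0.44 in the right ventricle, limma adjusted p = 0.000190 and 0.0326) and Slc2a1 still rose (1.15 and 1.25, limma adjusted p = 7.64e-05 and 0.000723). Ldha, which missed the threshold on the deposited scaling, then rose in both ventricles (0.20 and 0.42, limma adjusted p = 0.0456 and 0.0257). Hk2 then rose in the right ventricle (1.0, limma adjusted p = 0.00392), and its left ventricular estimate turned from -0.31 to 0.07. Pdk4 kept its left ventricular fall (-0.81, limma adjusted p = 0.0285), and its right ventricular estimate turned from -0.32 to 0.35.

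The DAAO animals differed among themselves, and their order was not the same for every gene; a shared order was not tested. In both ventricles animals D_7137, D_7142 and D_7143 had the 3 highest Slc2a4 values and D_7138 the lowest. Slc2a4 stood at 82.3% of the CTL mean in the right ventricle of D_7137 and at 24.6% in that of D_7138, and at 50.6% and 28.1% in their left ventricles. Animal D_7137 also had the highest DAAO values of Gapdh, Pdk4 and Slc2a1 in both ventricles. Animal D_7138 had the lowest of Gapdh and Pdk4 in both, and D_7143 the lowest of Slc2a1 in both. Other values went against that order: D_7143 was the second lowest DAAO animal for left ventricular Pdk4 (804) and Gapdh (33712), D_7138 the third highest for right ventricular Hk2 (1877), and D_7135 the highest for left ventricular Ldha (16701).

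**Figure D4:**
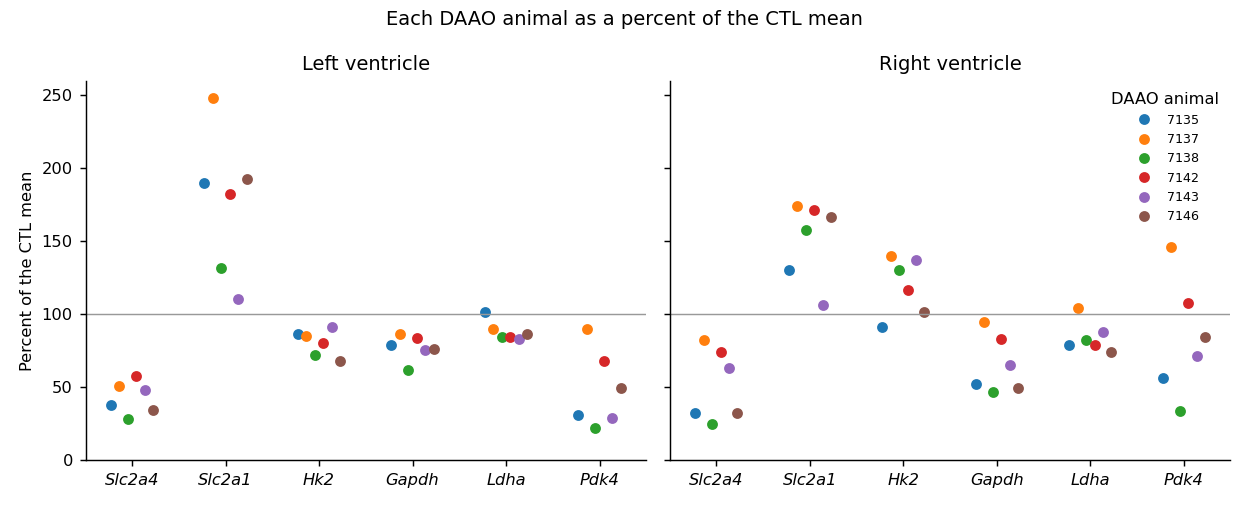
Each DAAO animal's normalized count as a percent of the CTL mean (vertical axis from 0, grey line at the CTL mean), for the 6 genes in the left and right ventricle, with 1 colour per animal. In the right ventricle animal D_7137 stands at 82.3% for Slc2a4 and 94.3% for Gapdh, while D_7138 stands at 24.6% and 46.4%.

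Within groups, Slc2a4 and Gapdh varied together. The deviations of their log2 values from the group means correlated over 12 libraries with a Pearson r of 0.864 in the left ventricle (permutation p = 0.00063, adjusted p = 0.0189 over 30 pairs, Spearman rho 0.818, permutation p = 0.00259, adjusted p = 0.0628). For the right ventricle r was 0.908 (permutation p = 0.00279, adjusted p = 0.0418, Spearman rho 0.923, permutation p = 0.00628, adjusted p = 0.0628). Without the 2 libraries farthest from the median of Slc2a4, r was 0.670 and 0.832. By group, r was 0.899 in CTL and 0.833 in DAAO in the left ventricle, and 0.357 and 0.963 in the right. This was the only pair of 15 in either ventricle to pass the threshold for r, and it passed for r only. Values of 1 library share its size factor, whose part in these correlations was not tested.

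Genes most like the members were sought over the 24 libraries among the 13343 other genes tested in both ventricles, by the Pearson correlation of log2 values centred within each table, as a description only. The likeness includes the difference between the groups, so the changes given for the nearest genes follow in part from that choice. Also, 2 libraries come from each animal. Nearest to Slc2a4 was ENSRNOG00000022980 (r = 0.981), which fell in both ventricles (log2 fold change -0.77 and -0.73, limma adjusted p = 0.00115 and 0.00869). Nearest to Slc2a1 was ENSRNOG00000021166 (r = 0.917), which rose (1.05 and 0.75, limma adjusted p = 2.15e-05 and 0.00317), and nearest to Pdk4 was ENSRNOG00000003452 (r = 0.850), which fell (-0.89 and -0.74, limma adjusted p = 0.000767 and 0.0207). The highest r was 0.974 for Gapdh, 0.892 for Ldha and 0.841 for Hk2, whose nearest genes are not named. The tables give no names for these identifiers.

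Slc2a1, Hk2, Gapdh and Ldha are known from textbooks as targets of hypoxia-inducible factor. RefSeq's promoter table of the GRCr8 assembly holds 5 of the 6 members by symbol and no Slc2a4. The 250 bases before the annotated start of Slc2a1, Gapdh and Ldha are shown because their windows, of the 5 members found, hold the letters ACGTG. These 3 genes were picked by that match. On the deposited scaling Slc2a1 rose, Gapdh fell and Ldha did not pass the threshold. Capitals mark matches to 4 motifs, each searched on both strands. The letters ACGTG are a form of the core of the hypoxia response element, and its other form, GCGTG, was not searched or marked. The GC box was searched as GGGCGG, which reads CCGCCC where it lies on the other strand. The TATA box was searched as TATAAA and the CCAAT box by its name.
Slc2a1, chr5:138002272-138002521, + strand: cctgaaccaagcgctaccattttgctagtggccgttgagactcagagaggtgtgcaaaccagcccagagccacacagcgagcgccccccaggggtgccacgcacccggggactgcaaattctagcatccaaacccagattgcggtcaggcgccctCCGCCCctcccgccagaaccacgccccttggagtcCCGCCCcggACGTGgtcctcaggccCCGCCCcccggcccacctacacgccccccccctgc
Gapdh, chr4:159652468-159652717, - strand: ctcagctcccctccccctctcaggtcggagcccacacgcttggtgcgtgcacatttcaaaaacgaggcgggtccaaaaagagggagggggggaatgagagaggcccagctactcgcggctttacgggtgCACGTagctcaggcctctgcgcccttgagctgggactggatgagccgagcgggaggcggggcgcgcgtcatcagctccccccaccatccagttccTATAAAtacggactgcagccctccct
Ldha, chr1:106507842-106508091, + strand: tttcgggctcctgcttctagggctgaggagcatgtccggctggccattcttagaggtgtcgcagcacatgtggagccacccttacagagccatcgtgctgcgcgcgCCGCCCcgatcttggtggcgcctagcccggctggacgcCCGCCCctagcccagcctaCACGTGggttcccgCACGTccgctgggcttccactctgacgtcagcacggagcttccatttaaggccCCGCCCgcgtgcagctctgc

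ACGTG in either orientation occurred once in the Slc2a1 window, 51 bases before the start, and once in that of Gapdh, 121 bases before it. The Ldha window held it 3 times, 87, 86 and 73 bases before the start, where the first and second overlap as a palindrome, CACGTG. The windows of Hk2 and Pdk4 held none. Among all 33469 windows of that table, 16.6% held ACGTG, 30.5% the GC box, 12.9% the TATA box and 34.0% the CCAAT box. The GC box occurred 3 times in Slc2a1, 3 times in Ldha and once in Pdk4, the TATA box only in Gapdh, 26 bases before its start, and the CCAAT box only in Pdk4 among these 5. These are matches of letters in a window, and their part in the results was not tested.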

How the data were processed

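For each ventricle the authors deposited 1 table, whose signal is a normalized count: the reads of a gene after division by the size factor of the library. The submitters' processing notes name DESeq2 1.26.0, FastQC, STAR 2.7.0a and the build Rnor_6.0. No source used here gives the read counter, the annotation or the use of strand, which leaves overlapping genes and near copies uncertain. All values above 0 were whole multiples of a library's smallest value (100% within 1e-06), so reads were recovered by division.

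Genes with a mean of at least 10 over a table's 12 libraries were tested on log2(value + 1) with limma 3.58.1 (R 4.3.3), a scale which slightly understates changes of low genes, with a variance trend and Benjamini-Hochberg adjustment over all genes, two-sided. The tables were scaled separately, so effects were compared only as differences of within-table differences. Reads were also tested with edgeR 4.0.16 and DESeq2 1.42.0. Other alternatives changed the pseudocount, filter, scaling, weights, block and animals included. Ratios were tested by exact permutation of libraries or animals. The fits were tested on simulated data. Labels do not say that the numbers are separate rats, so p-values measure the spread between these samples. Across genes, the left and right libraries of 1 number deviated together with a median r of 0.55 (range 0.06 to 0.79), above 0.1 for 10 of 12 numbers. The reading of the number as an animal comes from the labels, and 9 of 12 left libraries correlated best with their own number. The exceptions were all CTL, C_7118, C_7120 and C_7123 (r = 0.06, 0.06 and 0.25 with their own number). The pairing is thus less sure in CTL. The left against right tests of the ratio, the test of its DAAO effect between ventricles and the block fits all use that pairing. Libraries of a group differed beyond sampling noise in every pair (lowest chi-square per degree of freedom 11.6).

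The 6 genes, the lists and the tests were chosen with earlier results of these data known. The rule for named genes was the 6 members, fixed pathway genes where matched, and the gene most like Slc2a4, Slc2a1, Hk2 and Pdk4, by identifier. The gene most like Hk2 is not named, so that at most 2 unnamed identifiers that fell are printed, and those most like Gapdh and Ldha were outside the rule. Pathway and cell type lists fixed by symbol could not be matched and were not run.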

Additional observations from a re-analysis of the deposited data

Results flagged for a closer look

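Among 28 groups of 6 libraries (the 6 genes and the Slc2a1 to Slc2a4 ratio in each group), 2 held a library far from the others, where chance gives about 1 in 20, or 1.4. The left ventricular Hk2 count of CTL animal C_7005 was 4562, against 3219 to 3713 in the 5 other CTL animals, and the same animal was also the highest of CTL in the right ventricle, at 2506. Ldha stood at 16701 in the left ventricle of DAAO animal D_7135, against 13639 to 14776 in the 5 other DAAO animals.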

How the results depend on the processing

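Over 29 results and 677 alternative values, 615 kept their direction and their side of the threshold or stayed within 1.5 times of a count. The DAAO effects on Slc2a4, Slc2a1 and their ratio kept both in each ventricle under all alternatives run. Where no cause is named below, the cause was not tested. With equal totals, Hk2 in the left ventricle was -0.11 and Ldha 0.021. Scaled to Gapdh, left ventricular Hk2 was 0.068 and Ldha 0.20, right ventricular Hk2 was 1.0, Ldha 0.42 and Pdk4 0.35, the differences between ventricles of Slc2a1 and Ldha were -0.094 and -0.22, and 7880 right ventricular genes were called against 3574. In 1 fit of all 24 libraries, which shares the spread, left ventricular Hk2 (-0.31) and Gapdh (-0.38) lost their calls. That left 3 of 6 genes, against 30.1% of 13344 genes. With no filter Gapdh lost its calls at -0.38 and -0.67. Without CTL animals C_7000 and C_7005, Ldha in the left (-0.30) and Hk2 in the right ventricle (0.55) passed, the Ldha difference between ventricles was -0.038, 236 genes differed between ventricles, and the left-right test of the CTL ratio (0.60) could not reach the threshold with 4 animals.

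Leaving out 1 animal at a time gave -0.79 to -0.58 for Gapdh, 0.18 to 0.50 for Hk2 and -0.31 to -0.19 for Ldha in the right ventricle. Of the 6 genes, 2 to 4 were called there, against 19.2% to 31.5% of all genes tested. The Hk2 difference between ventricles ran from -0.75 to -0.48, that of the ratio from 0.16 to 0.49, and 0 to 1 of the 6 genes differed. The left minus right log2 ratio ran from 0.60 to 0.70 in CTL and from 0.80 to 1.13 in DAAO, where 5 animals cannot go below p = 0.0625 (exact sign-flip permutation). Genes differing between ventricles, 391 in all, ran from 85 to 616: 120, 123 and 156 on leaving out C_7000, C_7118 or C_7120, and 255 (D_7135), 616 (D_7137), 160 (D_7138), 184 (D_7142), 223 (D_7143) and 85 (D_7146) on leaving out a DAAO animal. They were 1101 with array weights and 739 with DESeq2. With the replicate block they were 1360 (estimated correlation) and 1072 (fixed animal terms). With the block, Hk2 (-0.64 in both) and, with fixed terms, Pdk4 (-0.88) passed, 1 and 2 of the 6 genes, and the block changed no other call of theirs. With group medians, the ratio's difference between ventricles was 0.37 (exact permutation p = 0.0455), and the left-right values were 0.64 in CTL and 1.01 in DAAO (exact sign-flip permutation p = 0.125).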

Other observations

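The tables were scaled separately, so the level of a gene in the left and right ventricle was not tested. With recovered reads expressed as CPM (each library scaled to the same total), the CTL values side by side were 2338 ± 138 in the left and 4646 ± 476 in the right ventricle for Gapdh, 191 ± 41 and 85.1 ± 37.0 for Hk2, and 148 ± 46 and 68.5 ± 28.5 for Pdk4 (SD, n = 6 each). For Slc2a4 they were 305 ± 52 and 352 ± 32, for Ldha 860 ± 57 and 946 ± 117, and for Slc2a1 25.5 ± 3.8 and 19.1 ± 3.0. In DAAO, Gapdh stood at 2066 ± 145 and 3517 ± 752, Hk2 at 175 ± 24 and 119 ± 17, and Pdk4 at 78.5 ± 37.7 and 65.5 ± 26.0 CPM (SD, n = 6 each). The libraries of the ventricles lay apart without overlap for Gapdh and for Hk2, in CTL and in DAAO, and overlapped in at least 1 of the groups for the other 4 genes.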
